A study of Rattus norvegicus with 21 samples.

Results

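The fibrillar collagen genes and Sparc were followed in rat bladder after spinal cord injury (SCI) as 4 genes of the 32754 in the count table: Col1a1 (ENSRNOG00000003897), Col1a2 (ENSRNOG00000011292), Col3a1 (ENSRNOG00000003357) and Sparc (ENSRNOG00000012840). They were chosen by name as the chains of the main fibrillar collagens and a protein that binds them, and the names were given together with the identifiers. The table lists identifiers alone, and the gene table used here held 0 Ensembl identifiers, so the names could not be checked against a map. Of the 4, 3 passed the filter on low counts and entered the tests, as did 15225 genes in all. ENSRNOG00000011292, the identifier given for Col1a2, had 0 to 2 counts per library and 12 counts over the 21 libraries, and 10 libraries held any. It is described by its identifier alone, and nothing is drawn from it about Col1a2. A count of 0 allows up to 3 counts in a library, for counting error only.

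RNA was sequenced from full-thickness urinary bladder of male Sprague Dawley rats, an outbred strain, listed as WT and all in batch 1. The injured groups had a complete surgical cut of the cord at the T8 thoracic level when the animals were 6 to 7 weeks old, and bladders were taken after 2, 8 or 16 weeks. Uninjured controls of 0, 2, 8 and 16 weeks carried no transection. The paper calls its controls age-matched, so libraries of later weeks came from older animals in both arms. Each of the 7 groups held 3 libraries, with total counts from 8087726 to 15472537 and a median of 9584812. The titles give every library an identifier of its own, but the labels do not say that each identifier is a separate animal. The p-values measure the spread between these libraries, which may be technical. Full-thickness bladder holds urothelium, connective tissue and smooth muscle together. Lists of cell type markers could not be matched without a map of identifiers and are not analysed here.

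Fibrillar collagens give the bladder wall its tensile strength. Type I collagen is built from the chains of Col1a1 and Col1a2, and type III collagen from the chain of Col3a1 alone. The fibrils of both are laid down by fibroblasts and smooth muscle cells, and their proportion is a long-studied property of the wall during filling and after obstruction. Sparc encodes osteonectin, a matricellular protein that binds collagen outside the cell and helps to assemble fibrils.

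The 250 bases before the start of Sparc are shown as the stretch next to a gene whose level changed in these data. The promoters of Col1a1 and Col3a1 are not analysed here. The sequence was taken from RefSeq on the build GRCr8, at chr10:40038817-40039066 on the minus strand, and is written from 5′ to 3′. The capitals mark the letters GGAGG on either strand.

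Sparc promoter: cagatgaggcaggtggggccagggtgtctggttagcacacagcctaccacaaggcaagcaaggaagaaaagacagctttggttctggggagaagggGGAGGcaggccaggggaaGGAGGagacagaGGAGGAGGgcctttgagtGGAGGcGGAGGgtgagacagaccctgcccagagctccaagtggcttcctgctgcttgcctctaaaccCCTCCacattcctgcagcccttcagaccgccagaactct

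The letters GGAGG were found 7 times on the 2 strands of this stretch, with overlapping matches each counted. These letters were picked with the promoter's purine-rich stretch known. Of 33360 promoters of the same length, 64.7% held at least 1 match and 1.52% held as many. The letters CAGAC, the core bound by SMAD proteins, were found 3 times on either strand, where 42.9% of promoters held any and 2.55% held as many. On either strand, the TATA box letters TATAAA gave 0 matches in this window, and 12.9% of promoters held them. The same was so of the letters CCAAT, held by 34.0% of promoters, and of the GC box letters GGGCGG, held by 30.5%. G and C made up 60% of the Sparc stretch against a median of 51.6% over promoters. These matches are descriptions of letters, and the counts below do not measure binding.

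Col1a1 encodes the chain that is most abundant in type I collagen. Levels are given for replicates 1, 2 and 3 in that order, as counts scaled to a common library size (CPM) with the TMM factor of each library, which evens out composition. In controls, Col1a1 stood at 29512, 38913 and 21274 CPM at 0 weeks, at 16937, 16581 and 23811 CPM at 2 weeks, at 20461, 19479 and 11257 CPM at 8 weeks, and at 10351, 9474 and 12596 CPM at 16 weeks. After SCI, it stood at 15916, 20997 and 10698 CPM at 2 weeks, at 3722, 5967 and 4055 CPM at 8 weeks, and at 5499, 3693 and 2484 CPM at 16 weeks. The 6 SCI libraries of 8 and 16 weeks were the lowest of all 21, and every one of them lay below every control. Against controls of the same week alone, 14.7% of tested genes at 8 weeks and 18.3% at 16 weeks did not overlap, with SCI lower. The share of tested genes below every control was not counted. At 2 weeks, SCI replicates 1 and 3 lay below the 3 controls and replicate 2 lay among them.

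Col3a1 encodes the chain of type III collagen, the finer fibrils found beside type I. In controls, Col3a1 stood at 21782, 32364 and 20194 CPM at 0 weeks, at 16341, 16035 and 22379 CPM at 2 weeks, at 16214, 17938 and 11447.5 CPM at 8 weeks, and at 11309, 10229.7 and 12930 CPM at 16 weeks. After SCI, it stood at 14375.5, 20486 and 10568 CPM at 2 weeks, at 3987, 6296 and 4816 CPM at 8 weeks, and at 5569.5, 4243 and 3065 CPM at 16 weeks. The same 6 SCI libraries were again the lowest, a pattern that was not counted over all tested genes. At 2 weeks SCI replicate 2 lay among its controls and the others below them.

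Sparc was measured at lower counts than both collagens, but gene lengths were not used and levels of different genes are not compared. In controls, Sparc stood at 4292, 5853 and 3545 CPM at 0 weeks, at 3002, 2645 and 4338 CPM at 2 weeks, at 3033, 3568 and 1982 CPM at 8 weeks, and at 1879.9, 1737 and 2431 CPM at 16 weeks. After SCI, it stood at 2697, 3732 and 1908 CPM at 2 weeks, at 1066, 1342 and 1012 CPM at 8 weeks, and at 1233, 1015 and 740.1 CPM at 16 weeks. As with the collagens, all SCI libraries of 8 and 16 weeks lay below all controls, a pattern that was not counted over all tested genes. At 2 weeks SCI replicate 3 alone lay below its controls.

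**Figure D1:**
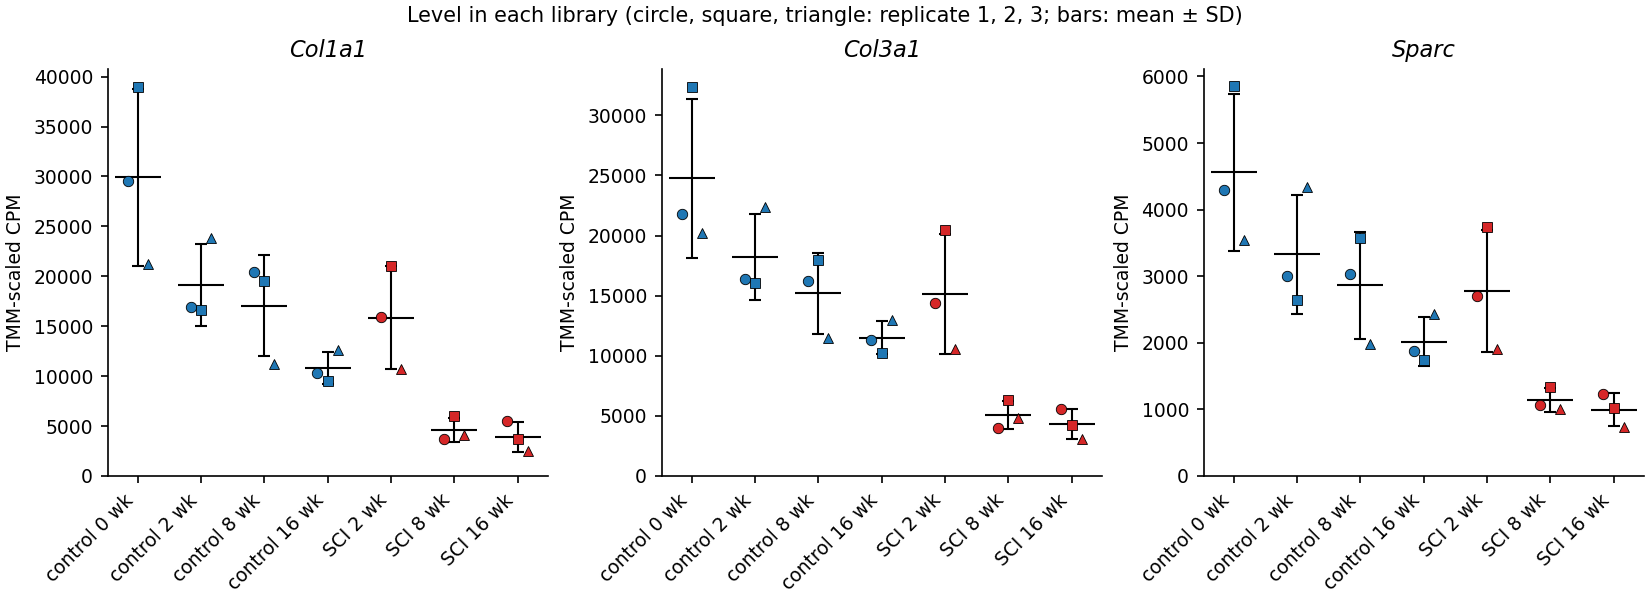
TMM-scaled CPM of Col1a1, Col3a1 and Sparc in each library, with controls in blue and SCI in red, and with a bar for the mean and SD of the 3 libraries of a group. The 8- and 16-week SCI libraries sit below every control for each gene, a pattern that was not counted over all tested genes. The 2-week SCI libraries overlap their controls.

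The group means of the 3 genes had the same order. From high to low it ran control 0 weeks, control 2 weeks, control 8 weeks, SCI 2 weeks, control 16 weeks, SCI 8 weeks and SCI 16 weeks. For Col1a1, the mean was 29899.8 ± 8826 CPM in 0-week controls and 3892 ± 1518 CPM at 16 weeks after SCI (SD, n = 3 each), a 7.68-fold range. For Col3a1, the corresponding means were 24780.1 ± 6616 and 4293 ± 1253 CPM (SD, n = 3 each), a 5.77-fold range. For Sparc, they were 4563 ± 1178 and 996 ± 247 CPM (SD, n = 3 each), a 4.58-fold range. The libraries of neighbouring groups in this order overlapped from control 0 weeks down to control 16 weeks, and so did those of SCI 8 and 16 weeks.

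Together, the 3 genes took a large share of all counts. The share was 5.68% ± 1.23 in 0-week controls, 4.12% ± 0.792 in 2-week controls, 3.25% ± 0.816 in 8-week controls and 2.35% ± 0.385 in 16-week controls (SD, n = 3 each). After SCI it was 3.48% ± 1.04 at 2 weeks, 1.13% ± 0.206 at 8 weeks and 0.953% ± 0.323 at 16 weeks (SD, n = 3 each). Single libraries reached from 0.658% to 6.95%. By count, Col1a1 ranked between 1 and 28 among all genes of a library, Col3a1 between 2 and 21, and Sparc between 12 and 99.

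The first comparison asked how SCI bladders differed from controls of the same week. At 8 weeks all 3 tested members fell, Col1a1 3.73-fold (95% interval 2.30 to 6.03), Col3a1 3.02-fold (2.00 to 4.55) and Sparc 2.51-fold (1.67 to 3.77). At 16 weeks all 3 fell again, Col1a1 2.78-fold (1.73 to 4.47), Col3a1 2.68-fold (1.78 to 4.03) and Sparc 2.02-fold (1.35 to 3.03). At 2 weeks none passed the test, and the intervals of the fold lower, 0.755 to 1.92 for Col1a1, 0.807 to 1.80 for Col3a1 and 0.802 to 1.79 for Sparc, each include no change. CPM is a share of the counts of a library, so a lower value need not mean a lower amount per bladder, which was not tested. In bulk tissue, fewer cells that make these transcripts, less of their RNA per cell and more RNA from other genes cannot be told apart. The paper reports that bladder weight relative to body weight and collagen deposition were both higher after SCI than in controls at every time studied.

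The 8-week means were 17066 ± 5054 CPM in controls and 4581.5 ± 1211 CPM after SCI for Col1a1 (SD, n = 3 each). The log2 fold change of Col1a1 was -1.90 (SE 0.33), with an adjusted p of 0.00777 by edgeR's quasi-likelihood test with Benjamini-Hochberg adjustment over all tested genes. Col3a1 went from 15199.9 ± 3362 to 5033 ± 1169 CPM, a log2 change of -1.59 with an SE of 0.28 and an edgeR adjusted p of 0.00787. Sparc went from 2861 ± 807 to 1139.8 ± 177 CPM, a log2 change of -1.33 with an SE of 0.28 and an edgeR adjusted p of 0.0162. The 3 members were thus called out of 3 tested, in a comparison that called 8.41% of all tested genes and 5.14% as lower (499 genes higher and 782 lower, or 2435 and 653 with library size alone as the scaling). The groups did not overlap, with SCI lower, for the 3 members and for 14.7% of tested genes. The median of the 3 members was -1.59 against a median of 0.0032 over all tested genes, and 0.906%, 1.44% and 2.26% of genes had a lower log2 fold change than Col1a1, Col3a1 and Sparc.

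Single SCI libraries changed the 8-week calls. Without SCI 8 weeks replicate 1, 32 genes were called in all and no member was, at adjusted p of 0.0560 for Col1a1 and Col3a1 and 0.0895 for Sparc, with log2 fold changes of -1.77, -1.45 and -1.28. Without SCI 8 weeks replicate 3, 61 genes were called and no member was, at adjusted p of 0.0523, 0.0521 and 0.0840, with log2 fold changes of -1.82, -1.56 and -1.25. In the other fits that left out 1 library, the 3 calls stood.

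At 16 weeks Col1a1 went from 10807 ± 1610.0 CPM in controls to 3892 ± 1518 CPM after SCI (SD, n = 3 each), a log2 change of -1.47 with an SE of 0.33 and an edgeR adjusted p of 0.0259. Col3a1 went from 11489.6 ± 1359 to 4293 ± 1253 CPM, a log2 change of -1.42 with an SE of 0.28 and an edgeR adjusted p of 0.0223. Sparc went from 2016 ± 366 to 996 ± 247 CPM, a log2 change of -1.02 with an SE of 0.28 and an edgeR adjusted p of 0.0437. All 3 were called, in a comparison that called 5.62% of tested genes and 3.24% as lower (362 genes higher and 493 lower, or 478 and 292 with library size alone), and the groups did not overlap for the 3 members and, with SCI lower, for 18.3% of tested genes. The median of the members was -1.42 against -0.017 over all tested genes, and 1.25%, 1.41% and 3.67% of genes had a lower value than Col1a1, Col3a1 and Sparc.

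Sparc was close to the threshold at 16 weeks, and single libraries decided the calls. No member was called without control 16 weeks replicate 1 or without any 1 of SCI 16 weeks replicates 1, 2 and 3, with adjusted p from 0.0521 (Col3a1) to 0.145 (Sparc). These fits called 19, 16, 104 and 17 genes in all, against 855 with every library, so the loss was not particular to the members. Without control 16 weeks replicate 3, Col3a1 was called and the other members were not, among 214 genes called in all, with adjusted p of 0.0554 for Col1a1 and 0.0995 for Sparc. Sparc alone was lost when the library left out was replicate 1 of the 2-week controls, of the 8-week controls or of the 2-week SCI group, replicate 2 of the 16-week controls, or replicate 3 of the 8-week SCI group, at adjusted p between 0.0517 and 0.0555. Over all of these fits, the log2 fold changes lay from -1.81 (Col1a1) to -0.85 (Sparc).

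At 2 weeks the means were 19109.6 ± 4075 CPM in controls and 15870.4 ± 5150.0 CPM after SCI for Col1a1, 18251 ± 3578 and 15143 ± 5003 CPM for Col3a1, and 3328 ± 892 and 2779 ± 915 CPM for Sparc (SD, n = 3 each). The log2 fold changes were -0.27, -0.27 and -0.26, with SEs of 0.32, 0.28 and 0.27 and edgeR adjusted p of 0.970, 0.949 and 0.952. The unadjusted p was 0.414, 0.341 and 0.357, and DESeq2 called 0 of the 3 among 64 genes called in all. The edgeR comparison called 0% of tested genes. The groups overlapped for each member.

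**Figure D2:**
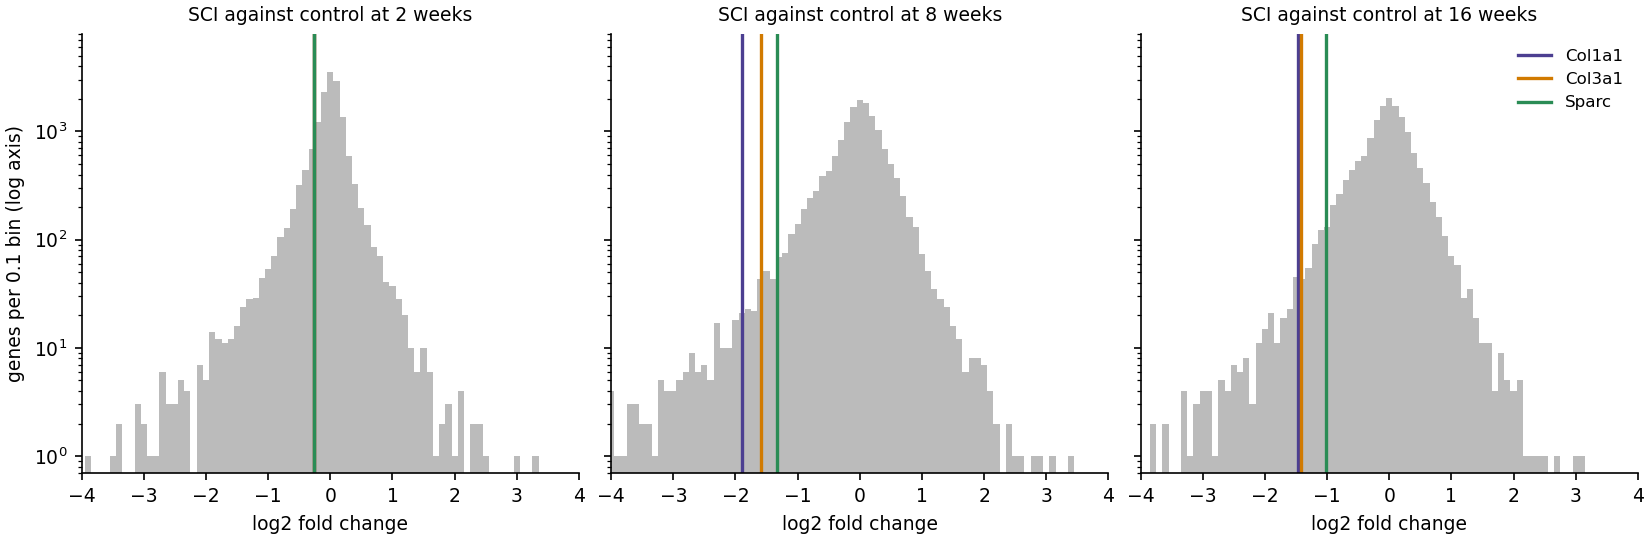
Number of tested genes per bin of log2 fold change of SCI against control (log axis) at 2, 8 and 16 weeks, with a line for each member, and with 10, 7 and 13 genes outside the plotted range. The lines of Col1a1, Col3a1 and Sparc lie together near -0.27 at 2 weeks and in the lower tail at 8 and 16 weeks, from -1.90 to -1.33 and from -1.47 to -1.02.

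Averaged over the 3 weeks, the comparison used all 9 SCI libraries and their 9 controls. Col1a1 fell 2.32-fold (log2 -1.21 with SE 0.19, adjusted p = 0.000642 in edgeR), Col3a1 2.14-fold (log2 -1.09 with SE 0.16, adjusted p = 0.000532 in edgeR) and Sparc 1.83-fold (log2 -0.87 with SE 0.16, adjusted p = 0.00187 in edgeR). This comparison called 22.7% of tested genes and 12.3% as lower (1578 genes higher and 1876 lower), and with library size alone as the scaling it called 3652 higher and 1272 lower. The 3 members were called in each of the 31 other fits that were tried, those without 1 library included. It shares its libraries with the single weeks and is not separate evidence.

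The second question was whether the effect of SCI differed between weeks. The effect on Col1a1 was lower at 8 than at 2 weeks by a log2 difference of -1.63 (SE 0.46), on Col3a1 by -1.33 (SE 0.39) and on Sparc by -1.07 (SE 0.39). The unadjusted p was 0.00218, 0.00330 and 0.0135, in a comparison where 8.59% of tested genes had an unadjusted p under 0.05. The edgeR adjusted p was 0.407, 0.425 and 0.507, so 0 of the 3 members were called, where edgeR called 0.0197% of tested genes, and DESeq2 called 0 of the 3 among 28 genes. Between 16 and 2 weeks the differences were -1.21, -1.15 and -0.76 (SE 0.45, 0.39 and 0.39), with unadjusted p of 0.0162, 0.00868 and 0.0675 and edgeR adjusted p of 0.615, 0.615 and 0.651, while 7.75% of tested genes had an unadjusted p under 0.05 and 0% were called. Between 16 and 8 weeks they were 0.42, 0.17 and 0.31 (SE 0.45, 0.39 and 0.39), with unadjusted p from 0.362 to 0.660, and 0% of tested genes were called. DESeq2 called 0 members in both of these, among 6 and 20 genes. A difference between weeks in the effect on the members was thus not called after adjustment, although the members passed at 8 and 16 weeks and not at 2. These 3 comparisons share libraries.

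The third comparison followed the controls over time. The means of the 3 genes were lower at each later week, and from 0 to 16 weeks the means differed 2.77-fold for Col1a1, 2.16-fold for Col3a1 and 2.26-fold for Sparc, a span that was not tested. None of the tested steps was called for a member. DESeq2 called 0 members as well, among 45 genes called in all from 0 to 2 weeks, 269 from 2 to 8 weeks, 105 from 8 to 16 weeks and 899 from 2 to 16 weeks. From 0 to 2 weeks the log2 fold changes were -0.65, -0.44 and -0.46 for Col1a1, Col3a1 and Sparc (SE 0.32, 0.28 and 0.28, edgeR adjusted p = 0.392, 0.506 and 0.491), with unadjusted p of 0.0597, 0.127 and 0.115, in a comparison that called 0% of tested genes. From 2 to 8 weeks they were -0.16, -0.26 and -0.22 (SE 0.32, 0.28 and 0.27, edgeR adjusted p = 0.823, 0.635 and 0.705), with unadjusted p from 0.351 to 0.616, and again 0% of tested genes were called. From 8 to 16 weeks they were -0.66, -0.40 and -0.51 (SE 0.32, 0.28 and 0.28, edgeR adjusted p = 0.538, 0.706 and 0.595), with unadjusted p of 0.0552, 0.160 and 0.0834, where 0.0788% of tested genes were called.

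From 2 to 16 weeks the controls of each member did not overlap. Col1a1 had a log2 change of -0.82 with an SE of 0.32 and an edgeR adjusted p of 0.145, Col3a1 of -0.67 (SE 0.28, adjusted p = 0.162 in edgeR) and Sparc of -0.72 (SE 0.28, adjusted p = 0.137 in edgeR). The unadjusted p was 0.020, 0.0267 and 0.0174. In this comparison 23.7% of tested genes had an unadjusted p under 0.05, 17.4% did not overlap with the later week lower, and 0.407% were called. Without 1 library the number of called genes ran from 0 to 794, the latter without control 0 weeks replicate 2. When the fit held these groups alone, Col1a1 was called (log2 -0.83, edgeR adjusted p = 0.0396), as were 1600 of 14627 genes.

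The fourth comparison followed the SCI libraries over time. From 2 to 16 weeks after SCI, Col1a1 fell 4.08-fold (log2 -2.03 with SE 0.33, adjusted p = 0.0375 in edgeR) and Col3a1 fell 3.53-fold (log2 -1.82 with SE 0.28, adjusted p = 0.0375 in edgeR). Sparc differed 2.79-fold (log2 -1.48, SE 0.28) at an edgeR adjusted p of 0.10. The 2 called members were among 7 genes called in all, 0.0460% of those tested, and 0.0328% were called as lower, and among all genes ordered by unadjusted p Col3a1 ranked 2, Col1a1 3 and Sparc 8. The groups did not overlap for the 3 members and, with the later week lower, for 6.59% of tested genes.

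These calls were fragile. With only the groups compared in the fit, neither was called, at edgeR adjusted p of 0.147 for Col1a1 and 0.139 for Col3a1, and 2 of 14285 genes were called in all. Neither was called when replicate 1 or 2 of the 8-week controls, replicate 1 or 2 of the 2-week SCI group, replicate 3 of the 8-week SCI group, or replicate 2 or 3 of the 16-week SCI group was left out, with adjusted p from 0.0526 to 0.272 and log2 fold changes from -2.03 to -1.55. These fits called 0 genes in all, or 1 without replicate 3 of the 16-week SCI group, so the loss was not particular to the members. Without control 2 weeks replicate 3, which left 2 genes called in all, Col3a1 was called and Col1a1 was at 0.0536. Sparc was called as well without SCI 2 weeks replicate 3 (adjusted p = 0.0451, among 5 genes called) and under DESeq2 (adjusted p = 0.000189, among 25), edgeR's likelihood ratio test (0.000294, among 30), library size alone (0.0492, among 7) and no count filter (0.0287, among 8).

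From 2 to 8 weeks after SCI, the log2 fold changes were -1.79 for Col1a1, -1.59 for Col3a1 and -1.29 for Sparc (SE 0.33, 0.28 and 0.28). The edgeR adjusted p was 0.0841, 0.0752 and 0.213, so 0 of the 3 were called, in a comparison that called 0.0131% of tested genes. The groups did not overlap for the 3 members and, with the later week lower, for 5.18% of tested genes. The unadjusted p was under 0.05 for all 3 members and for 4.49% of tested genes, and DESeq2 called all 3 among 22 genes. With replicate 3 of the 2-week SCI group or replicate 1 of the 16-week SCI group left out, Col1a1 and Col3a1 were called, at adjusted p of 0.0393 and 0.0369 and of 0.0451 and 0.0451, among 9 and 7 genes called in all. Without control 0 weeks replicate 2, Col3a1 was called at 0.0389, among 5 genes. From 8 to 16 weeks after SCI, the differences were -0.24, -0.23 and -0.19 (SE 0.32, 0.28 and 0.28), with unadjusted p from 0.416 to 0.488, DESeq2 called 0 of the 3 and 1 gene in all, and edgeR called 0% of tested genes.

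**Figure D3:**
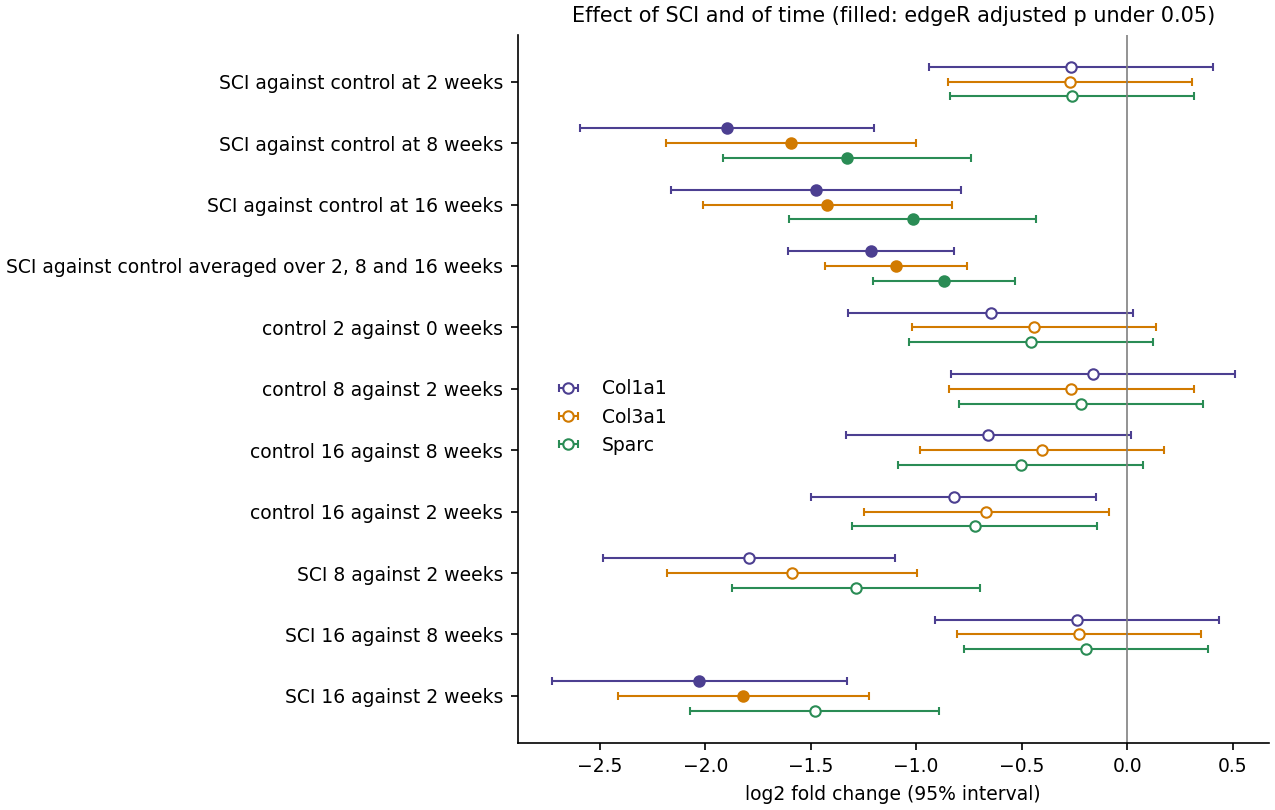
Log2 fold change of Col1a1, Col3a1 and Sparc in each comparison of SCI with control and of weeks within an arm, with 95% intervals from edgeR's fit of 21 libraries. Filled points had an adjusted p under 0.05, and they lie at 8 and 16 weeks, in the average over weeks and, for the collagens, between 2 and 16 weeks after SCI.

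Relative to Col1a1, Sparc was higher after SCI. The ratio of counts within a library needs no scaling, and it was used to ask whether Col3a1 and Sparc moved with Col1a1. The ratio of Sparc to Col1a1 was 0.154 ± 0.011, 0.173 ± 0.012, 0.169 ± 0.018 and 0.186 ± 0.0061 in controls of 0, 2, 8 and 16 weeks (SD, n = 3 each). After SCI it was 0.175 ± 0.0050 at 2 weeks, 0.254 ± 0.031 at 8 weeks and 0.266 ± 0.038 at 16 weeks (SD, n = 3 each). The 6 SCI libraries of 8 and 16 weeks, from 0.224 to 0.298, lay above every control, of which the highest was 0.193. Over the 3 weeks, the log2 ratio was higher after SCI by 0.37 (two-sided exact permutation p = 0.002 over 8000 arrangements within weeks, where 0.00025 is the smallest possible). Adjusted over the 6 ratio tests, p was 0.012.

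By week, the log2 difference in the ratio of Sparc to Col1a1 was 0.02 at 2 weeks (exact permutation p = 0.8), 0.58 at 8 weeks and 0.50 at 16 weeks (exact permutation p = 0.1 each, the smallest that 3 against 3 allow). Among the 9 SCI libraries, differences between weeks made up 80.3% of the variation (sum of squares) of this log2 ratio (one-sided exact permutation p = 0.0286, adjusted 0.0726), which did not pass after adjustment. Among the 12 controls, they made up 53.7% (exact permutation p = 0.0952, adjusted 0.0952).

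The ratio of Col3a1 to Col1a1 did not pass the adjusted test. It was 0.840 ± 0.11, 0.957 ± 0.015, 0.910 ± 0.11 and 1.07 ± 0.035 in controls of 0, 2, 8 and 16 weeks, and 0.956 ± 0.046, 1.10 ± 0.072 and 1.13 ± 0.11 in the SCI groups of 2, 8 and 16 weeks (SD, n = 3 each). SCI and control libraries overlapped at 2 and at 16 weeks and did not at 8 weeks, where the lowest SCI library was at 1.06 and the highest control at 1.02. Over the 3 weeks, the log2 ratio was higher after SCI by 0.12, with a two-sided exact permutation p of 0.0465 that became 0.0726 over the 6 ratio tests and did not pass. Differences between weeks made up 58.9% of its variation in controls (exact permutation p = 0.0484, adjusted 0.0726) and 59.8% in SCI libraries (exact permutation p = 0.075, adjusted 0.09).

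**Figure D4:**
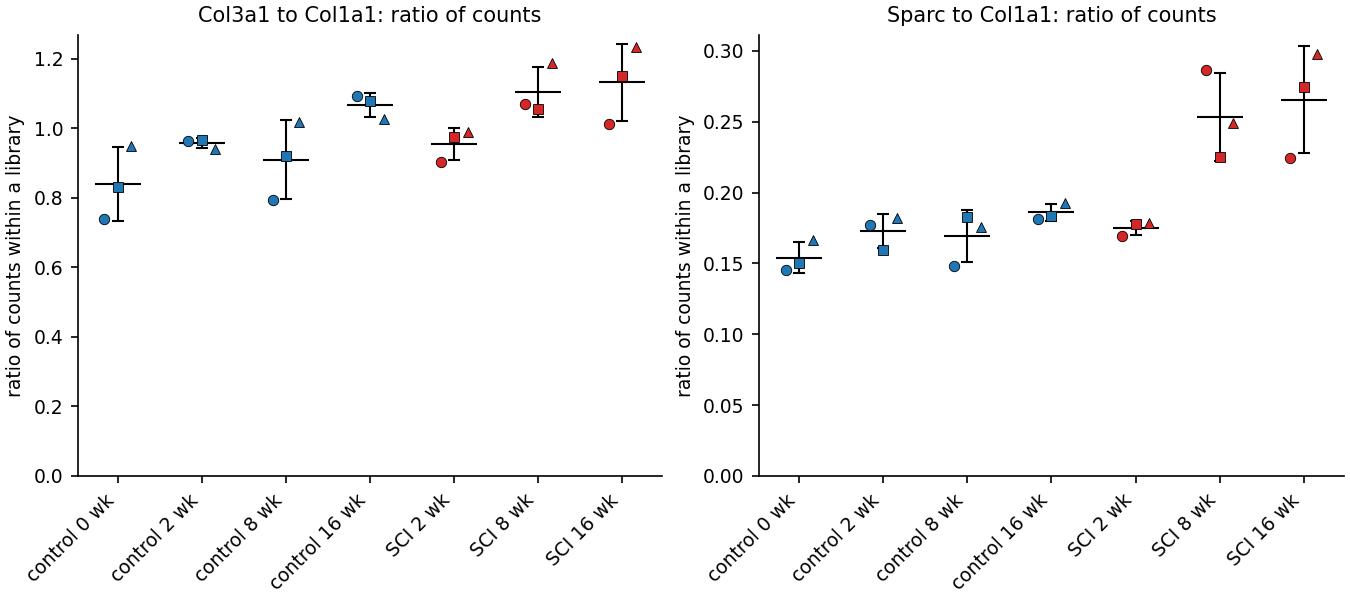
Ratio of Col3a1 to Col1a1 counts and of Sparc to Col1a1 counts within each library, with controls in blue, SCI in red, circles, squares and triangles for replicates 1, 2 and 3, and bars for the mean and SD of 3 libraries. The 8- and 16-week SCI libraries lie above all controls for Sparc to Col1a1, from 0.224 to 0.298.

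Libraries of one group spread widely in these genes. The pooled SD within groups, in log2 CPM, was 0.42 for Col1a1, 0.35 for Col3a1 and 0.37 for Sparc, against a median of 0.22 over tested genes. Of all tested genes, 82.7%, 74.8% and 76.4% had a smaller SD than Col1a1, Col3a1 and Sparc. Among the 526 genes with a mean log2 CPM of at least 8, the median SD was 0.17, and 96.8%, 89.9% and 91.4% had a smaller SD. The libraries that stood low or high in a group were shared among members. In 6 of the 7 groups, the same library was lowest for all 3 genes, the exception being SCI 8 weeks, where replicate 1 was lowest for the collagens and replicate 3 for Sparc. In 6 of the 7 groups the same library was highest, the exception being control 8 weeks, where it was replicate 1 for Col1a1 and replicate 2 for the others.

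Across the 21 libraries, log2 CPM of Col1a1 and Col3a1 had a Pearson r of 0.995 and a Spearman rho of 0.991. The values were r = 0.991 and rho = 0.987 for Col1a1 and Sparc, and r = 0.988 and rho = 0.990 for Col3a1 and Sparc. After each group's mean was subtracted, r was 0.967, 0.951 and 0.954. These are descriptions over libraries that share groups, and genes in a library share its depth and scaling. Against log2 total counts, r was 0.31 for Col1a1, 0.32 for Col3a1 and 0.29 for Sparc, and 0.022, -0.0061 and -0.0058 within groups. Against the TMM factor, which ran from 0.903 to 1.09, r was -0.56, -0.57 and -0.55, and within groups it was -0.52, -0.59 and -0.53. With the members left out of library sizes and factors, the 8-week log2 fold changes were -1.90, -1.59 and -1.33, and all 3 calls at 8 and at 16 weeks stood.

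**Figure D5:**
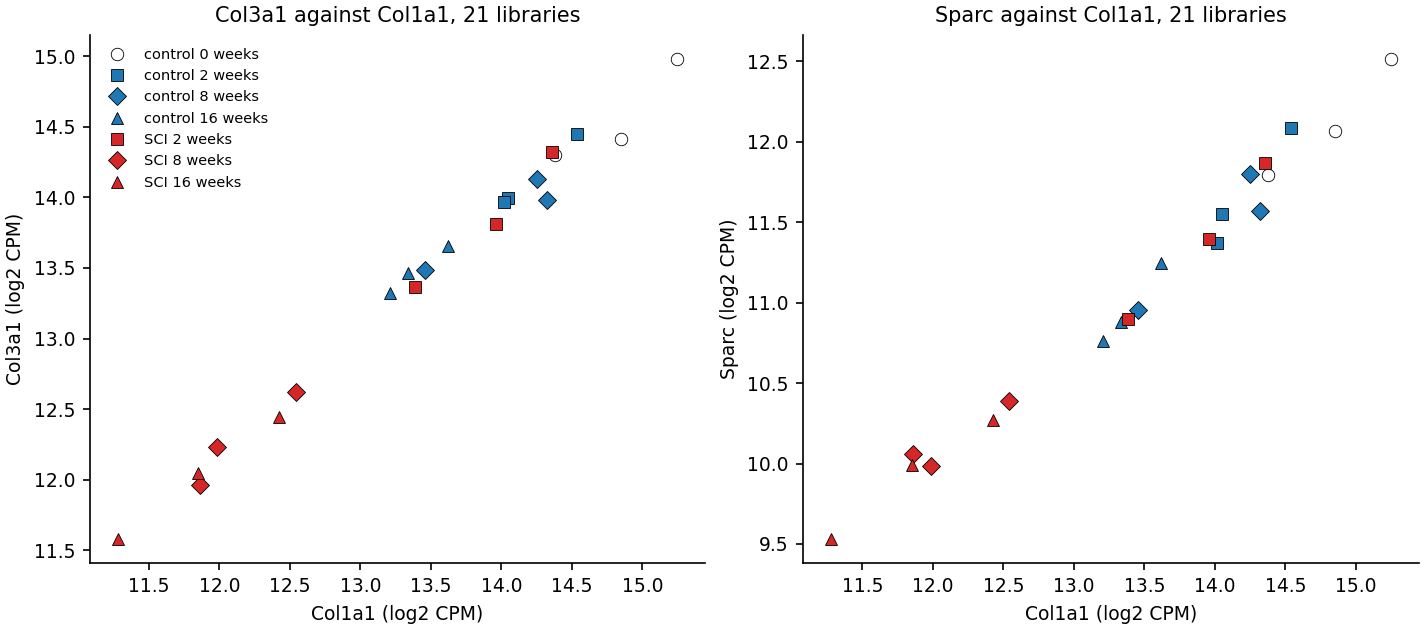
Log2 CPM of Col3a1 and of Sparc against log2 CPM of Col1a1 in the 21 libraries, with a symbol for each group, controls in blue or white and SCI in red. The points lie along one line for both genes (r = 0.995 and 0.991), and the 8- and 16-week SCI libraries form the low end.

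Other genes followed the same course. Of 13300 tested genes with a mean log2 CPM of at least 1, 25 had a Pearson r of at least 0.9 with the mean of the members over the 21 libraries, 4 had an r of at least 0.95, and 0 had an r of -0.9 or below. The most alike were ENSRNOG00000016758 (r = 0.970) and ENSRNOG00000008749 (r = 0.967), given by identifier since no map was at hand. ENSRNOG00000016758 lay between 94.7 and 163 CPM in 0-week controls, between 75.3 and 85.1 CPM in 16-week controls, and between 30.9 and 45.8 CPM at 16 weeks after SCI. ENSRNOG00000008749 lay between 1257 and 2026 CPM, between 889 and 962 CPM, and between 401 and 592 CPM in the same groups. For both genes, the 16-week SCI libraries lay below the 16-week controls. The other genes of collagen assembly, such as the enzymes that hydroxylate, trim and cross-link the chains, could not be matched to identifiers and are not analysed here.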

How the data were processed

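RNA of 21 bladder samples was sequenced by the authors from stranded, ribosome-depleted libraries, and the reads of 2 flow cells were summed. The deposited table holds whole-number raw counts for each Ensembl gene. The submitters' processing notes name Trim Galore 0.6.10, STAR 2.7.10a, featureCounts 2.0.3 and the build Rnor_6.0. The annotation release and the strand setting are not given in the sources used here, so overlapping or near-identical genes may share reads. Samples were grouped by their titles.

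Genes were filtered with filterByExpr of edgeR 4.0.16 (R 4.3.3), which kept 15225, scaled by TMM, and fitted over 21 libraries with a mean per group (14 residual degrees of freedom). Quasi-likelihood F tests were adjusted by Benjamini-Hochberg within each comparison, at a threshold of 0.05. SEs were the absolute unshrunken log2 change divided by the root of F. Log2 CPM used a prior count of 2. Ratios of raw counts were tested by exact permutation. Replicates differed by more than sampling noise (chi-square per degree of freedom 7.22 to 59.9 over 21 pairs). The scripts were tested on simulated data. Alternatives were DESeq2 1.42.0, edgeR's likelihood ratio test, other scalings, filters and sample sets, a replicate block, and each library left out in turn.

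The members, lists, tests and alternatives were chosen with earlier results of these data known. Named genes were the members and, since no map to symbols was at hand, the first 2 identifiers most alike in pattern. The planned lists of collagen assembly and cell type markers were not matched, and a planned ratio of Col1a2 to Col1a1 was not run because its identifier held 12 counts. Totals of 8087726 to 15472537 gave every tested member many counts per library, so counting error of the tested members is small beside the spread between libraries.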

Additional observations from a re-analysis of the deposited data

How the results depend on the processing

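At this depth, the 3 libraries of a group limited the precision of the tested members. Under each of 31 alternatives, all 3 tested members were called in the average over weeks, and 0 were called at 2 weeks, where 2442 to 4924 and 0 to 69 genes were called in all. Leaving out each library in turn gave 0 to 3 members called at 8 and at 16 weeks and between 2 and 16 weeks after SCI, and 0 to 2 between 2 and 8 weeks after SCI. Over all genes these fits called 32 to 2585, 16 to 1729, 0 to 10 and 0 to 9, in the same order. No other setting moved the count at 8 or 16 weeks. With only the groups compared, 1 member was called between 2- and 16-week controls, among 1600 of 14627 genes, and 0 between 2 and 16 weeks after SCI, where 2 of 14285 genes were called. Between 2 and 8 weeks after SCI, DESeq2 and the likelihood ratio test called 3 (of 22 and 28 genes called), and library size alone and no count filter called 2 (of 8 and 9). Library size alone raised the median log2 change of all genes by about 0.19 at 8 weeks (to 0.188) and to 0.087 at 16 weeks, turned 499 higher and 782 lower calls at 8 weeks into 2435 and 653, and left the members at -1.72, -1.42 and -1.15.

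The log2 ratio of Col3a1 to Col1a1, SCI minus control, was -0.0035 at 2 weeks alone, 0.29 at 8 weeks and 0.08 at 16 weeks. Over all weeks this difference was 0.12, and without 1 library it was 0.0891 to 0.149 (exact permutation p from 0.00875 to 0.0993). Without 1 library, differences between weeks made up 51.7% to 74.2% of the variation of this log2 ratio in controls and 47.1% to 80.6% in SCI libraries. The log2 ratio of Sparc to Col1a1, SCI minus control, was 0.020, 0.58 and 0.50 at 2, 8 and 16 weeks. Without 1 library, the difference over all weeks was 0.339 to 0.409 (exact permutation p from 0.00125 to 0.0045). Differences between weeks then made up 43.9% to 72.2% of the variation of this log2 ratio in controls and 74.2% to 90.9% in SCI libraries. The cause was not tested.

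Same-numbered SCI and control libraries deviated with r from -0.135 to 0.127, over 0.1 in 3 of 9 pairs, and 10 of 18 libraries correlated best with their own number. The correlation was not over 0.1 in every pair, so the numbers were not taken to pair the libraries, and these values do not settle whether they do. With the replicate block, 1783 genes were called at 8 weeks and 1307 at 16 weeks, and the counts of called members were unchanged. The SCI minus control difference in the log2 ratio of Col3a1 to Col1a1 stayed 0.12 with this block (exact permutation p = 0.0820).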
